A study of Mus musculus with 6 samples.

Results

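The genes described here are the core machinery of the cell division cycle: the A-, B-, D- and E-type cyclins, the numbered cyclin-dependent kinases (CDKs), the CDK inhibitors, the E2F factors with their pocket proteins and DP partners, the CDC25 phosphatases, Wee1 and Cdc20. They were chosen by gene symbol alone, and 53 of the 22969 gene names in the RNA-seq table matched. RNA had been sequenced from 6 samples of E14Tg2a, a mouse embryonic stem cell line, at passages 37 to 40. In 3 samples the cells were pluripotent ESCs kept in serum medium with leukemia inhibitory factor (LIF). In the other 3 samples LIF had been withdrawn and 1 μM retinoic acid (RA) added to the monolayers for 48 h (2 days), and these cells are called Neuronal Cells (NCs). The NCs thus differ from the ESCs in both LIF and RA, and the 2 changes cannot be told apart. Both conditions rest on this 1 line, and each sample was a pool of culture plates.

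Progression through the cell cycle is driven by CDKs, which are active only when bound to a cyclin. D-type cyclins with Cdk4 or Cdk6 phosphorylate the pocket proteins, which frees E2F factors to switch on genes for DNA replication, after which cyclins E and A drive S phase with Cdk2 and cyclin B with Cdk1 drives mitosis. CDK inhibitors oppose these kinases, and pluripotent ESCs are known for a short G1 phase and weak inhibitor activity, which change as the cells differentiate.

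The deposited table holds 1 FPKM value (fragments per kilobase of transcript, relative to the depth of the library) per gene and condition, estimated over the 3 replicates. It holds no value of a single sample, so no SD or n stands beside any value below. The authors' own comparison, deposited with these values and holding p-values, was not used, and no test was run here. A ratio below thus carries no replicate check. A gene counted as higher or lower in NCs when its FPKM, averaged over the 2 conditions, was at least 1 and its ratio reached 2-fold. Log2 ratios are NC over ESC without a pseudocount. The FPKM summed to 770592 in ESCs and 628679 in NCs, so scaling each condition to the same total (TPM) moves every log2 ratio up by 0.29, a scaling chosen after seeing the data, which turns the direction of genes close to a ratio of 1.

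Marker genes were read first. All 10 pluripotency markers were lower in NCs, with a summed FPKM of 6047 in ESCs and 938.9 in NCs. Dppa5a held most of both sums (3612 and 780.1 FPKM), and the median log2 ratio of the 10 was -3.88. All 7 RA-response genes were higher, with sums of 10.9 FPKM in ESCs and 806.8 in NCs. Of 6 neural progenitor markers past the filter, 5 were higher, among them Sox1 and Pax6. Zic1 and Hes5, also among the 5, lay below 1 FPKM in ESCs. Below the filter, Fabp7 had 1.11 FPKM in ESCs and 0.421 in NCs, and Pax3 had 0.0717 and 1.81. The word neuronal was not borne out by neuron markers. Of 7 past the filter, 0 were higher and 5 were lower (Tubb3, Elavl3, Neurod1, Stmn2 and Nefl). All 10 markers of this list summed to 201.9 FPKM in ESCs and 26.4 in NCs, with Stmn2 alone at 142.2 and 11.8. Below the filter, Snap25 and Rbfox3 had lower values in NCs, and Dcx had a higher one (0.0140 FPKM in ESCs, 0.334 in NCs). Of 9 extraembryonic endoderm markers, 5 were higher, with sums of 33.5 and 61.0 FPKM, while Afp and Ttr lay below the filter. All 6 mesoderm markers lay below it, and of 6 fibroblast markers 3 were higher and 1, Thy1, was lower (summed FPKM 20.1 and 42.1). The part of these other cell types in the values below was not tested, and in RNA from whole cultures fewer cells of a type and less RNA per cell cannot be told apart.

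Most of the cell cycle genes were close to equal in ESCs and NCs, and a few paralogs stood far apart. Of the 53 genes, 51 passed the filter, and 2 did not: Ccnb3, a meiotic B-type cyclin (0.0219 FPKM in ESCs, 0.0959 in NCs), and Cdk15 (0.115 and 0.0837). In NCs 6 were at least 2-fold higher (11.8%, against 10.9% of all 12714 genes past the filter): Ccnd2, Cdk14, Cdkn2c, Cdkn2a, Ccne2 and Cdkn1c. Of these, Cdk14 and Cdkn2c lay below 1 FPKM in ESCs and passed the filter through their NC values alone. Only Rbl2 was at least 2-fold lower (1.96%, against 9.75% of all genes). On the TPM scale 8 were higher and 0 lower, where 16.2% of all genes were higher and 6.56% lower. A ratio within 1.5-fold either way was found for 33 of the 51 (64.7%, against 62.2% of all genes). The median log2 ratio was -0.05 with quartiles of -0.34 and 0.29, against a median of -0.04 and quartiles of -0.44 and 0.41 over all genes. On the TPM scale these medians were 0.25 and 0.26. The shares of genes higher and of genes within 1.5-fold were thus close to those of the whole table.

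The NC value lay above the ESC value for 23 of the 51 genes (45.1%, against 47.5% of all genes), and for 35 on the TPM scale (68.6%, against 67.2%). The direction of 12 turned with the scaling: Ccna2, Cdc25a, Cdc25c, Cdk1, Cdk8, Cdk9, Cdk12, Cdk17, Cdkn1b, Rbl1, Tfdp2 and Wee1. Among the other genes within 2-fold, 17 were higher and 15 lower on every scale.

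**Figure D1:**
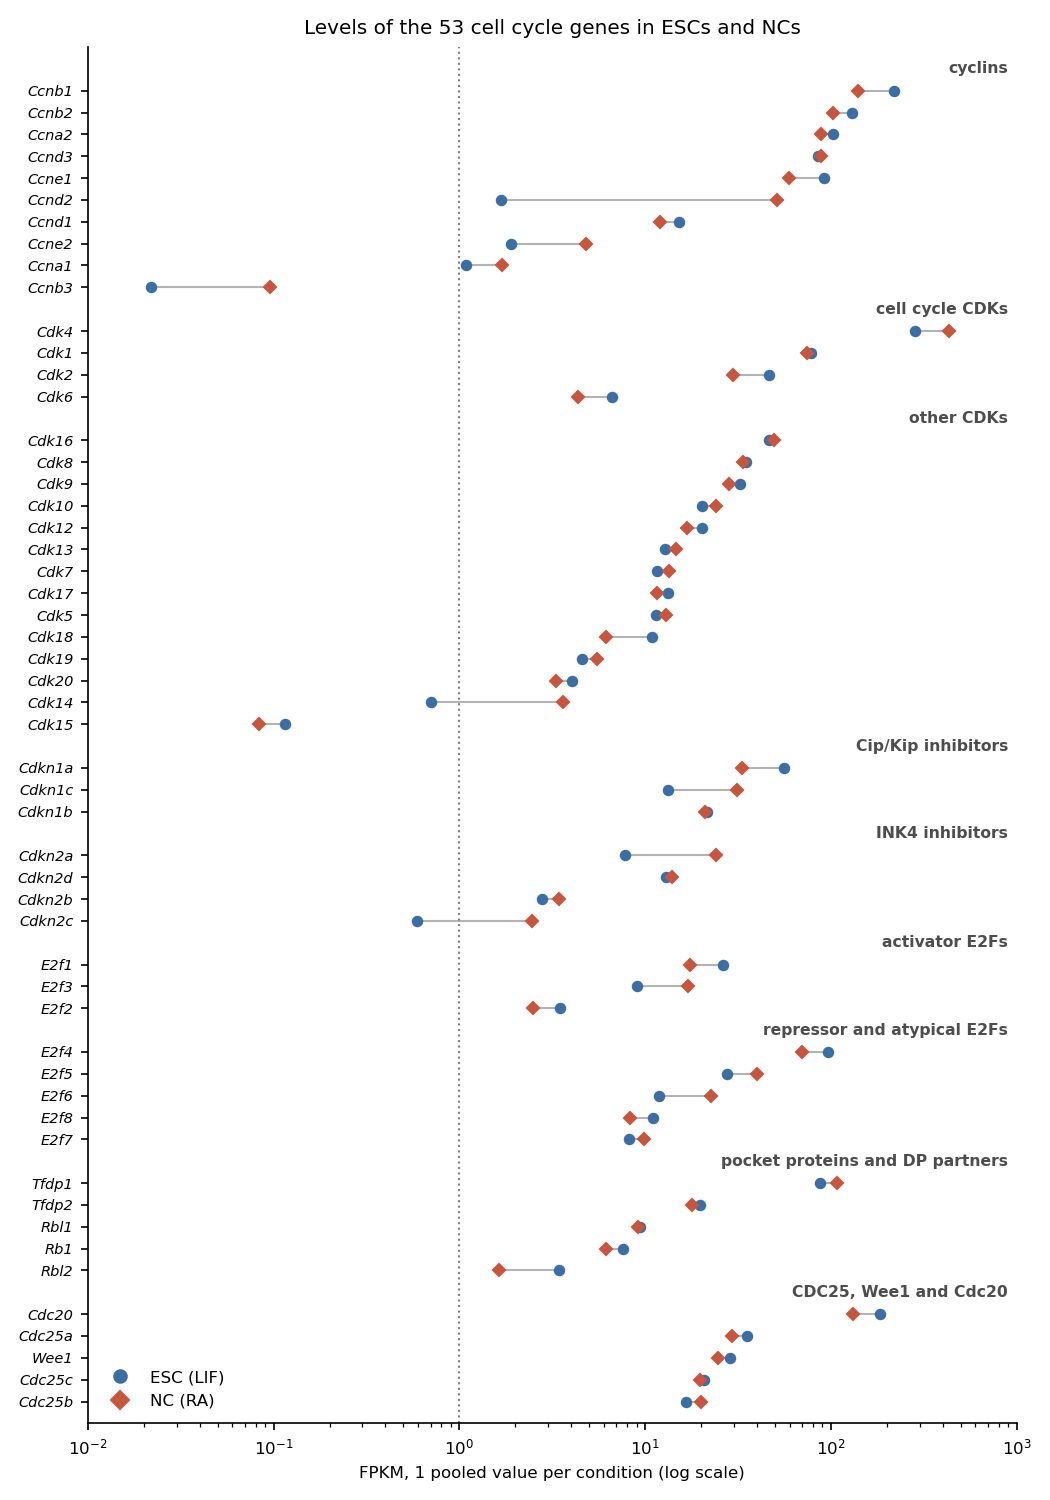
FPKM of the 53 cell cycle genes on a log axis, with 1 circle for ESCs and 1 diamond for NCs per gene, joined by a line and grouped by role. Each symbol is the single pooled value of a condition, without an error bar, and the dotted line marks 1 FPKM. Most pairs nearly touch, while Ccnd2 spans from 1.67 to 51.5 FPKM.

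Levels between genes can be compared because FPKM is per length. Cdk4, the kinase partner of D-type cyclins, had the highest FPKM of all 53 genes in both conditions, 282 in ESCs and 434 in NCs. In ESCs it was followed by Ccnb1 (219.6), Cdc20 (184.6), Ccnb2 (130.1) and Ccna2 (102.7), all of which act in S phase or mitosis. In NCs the order after Cdk4 was Ccnb1 (139.5), Cdc20 (130.8), Tfdp1 (107.6) and Ccnb2 (102.7).

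Stretches of promoter are shown because E2F factors are known to act on genes of their own network. RefSeq promoter windows on GRCm38.p6, from 250 bases before to 50 after a start site, were matched for 40 of the 53 genes, in 49 windows. Windows of the other 13 genes, Ccnd2, Ccne2 and Cdkn1c among them, were not used here. The letters TTTNNCGC, a core of E2F sites, were searched on both strands and found in 10 of the 40 genes (25%): Cdk1, Cdk2, Cdk6, Cdkn2a, E2f2, E2f3, E2f7, Rbl1, Tfdp1 and Cdc25a. By window the share was 24.5%, against 5.17% of all 32851 windows in the table, and by gene it compares with 10.1% of the 9351 expressed genes that had a window. The letters TTTGAA, of the cell cycle homology region bound by DREAM and related complexes, were in 22.5% of the 40 genes (13.5% of expressed genes), but by window in 18.4%, against 17.9% of all windows. CCAAT, the NF-Y site, was in 52.5% of the genes (43.5%) and by window in 44.9%, against 37.4%. A direct repeat that RA receptors bind, with a spacer of 5 bases, was in 0 of the 40 (0.00913% of all windows). In no window did 2 of these motifs share letters. A match is a description of letters and not of a bound site. The stretches below run from base -150 before the RefSeq start to the last base outside annotated exons, and capitals mark E2F, TTTGAA or CCAAT letters on either strand. Cdkn2a, which was higher in NCs, is shown at its upstream start, Rbl1 and Rbl2 as paralogs with unlike ratios, and the others as genes of G1, S phase and mitosis that hold several motifs.
Cdkn2a, chr4:89294654-89294769, minus strand: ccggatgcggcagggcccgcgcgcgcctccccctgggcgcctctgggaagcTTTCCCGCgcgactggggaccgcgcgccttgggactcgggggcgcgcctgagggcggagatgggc
E2f3, chr13:29986064-29986213, minus strand: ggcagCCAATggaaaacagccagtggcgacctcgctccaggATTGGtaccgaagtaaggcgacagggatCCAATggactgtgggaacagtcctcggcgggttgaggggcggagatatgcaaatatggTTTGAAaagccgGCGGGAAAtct
Rbl1, chr2:157204535-157204684, minus strand: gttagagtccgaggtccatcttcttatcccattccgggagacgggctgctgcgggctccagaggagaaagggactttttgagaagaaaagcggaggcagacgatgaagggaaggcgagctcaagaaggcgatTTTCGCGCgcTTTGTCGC
Rbl2, chr8:91069907-91070056, plus strand: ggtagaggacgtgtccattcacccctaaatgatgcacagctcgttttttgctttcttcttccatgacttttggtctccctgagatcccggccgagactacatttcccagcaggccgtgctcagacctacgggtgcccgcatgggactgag
Cdc25a, chr9:109875429-109875578, plus strand: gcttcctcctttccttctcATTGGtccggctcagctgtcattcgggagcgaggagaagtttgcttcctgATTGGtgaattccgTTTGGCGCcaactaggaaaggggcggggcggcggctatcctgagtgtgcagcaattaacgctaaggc
Cdk1, chr10:69352939-69353062, minus strand: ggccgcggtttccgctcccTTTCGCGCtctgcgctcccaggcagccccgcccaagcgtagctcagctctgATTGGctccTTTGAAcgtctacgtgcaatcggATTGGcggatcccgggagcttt
Cdc20, chr4:118437353-118437493, minus strand: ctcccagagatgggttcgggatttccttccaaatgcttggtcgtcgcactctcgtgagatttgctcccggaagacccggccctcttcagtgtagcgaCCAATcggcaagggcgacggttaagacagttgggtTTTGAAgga
In Cdkn2a the E2F letters began at base -99, in E2f3 at -11, in Cdc25a at -67 and in Cdk1 at -131. At the other Cdkn2a start the same stretch held none of the motifs, and the E2F letters of that window began at -244. Which product of Cdkn2a, p16Ink4a or p19Arf, begins at the printed start is not assigned here. Rbl1 held the E2F letters at both -18 and -8. The Rbl2 stretch held none of the motifs, but its window held TTTGAA at -201, before the stretch. Cdc20 had CCAAT at -53 and TTTGAA at -18, and its window held CCAAT again at -8, after the stretch. The Cdk1 window also held E2F letters at -29, which run past the end of the stretch, and TTTGAA at -15. The 10 genes with E2F letters went from a log2 ratio of -0.63 (Cdk2) to 1.63 (Cdkn2a), with 4 above 0 and a median of -0.06. For the 28 other genes with a window past the filter the median was -0.04, so the 2 medians lay close together. The 9 genes with TTTGAA had a median of -0.34, with 3 above 0, against -0.04 for the 29 without. For CCAAT the medians were -0.04 in 21 genes and -0.05 in 17.

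Among the cyclins, Ccnd2 stood apart from all other genes of the machinery. Its protein, cyclin D2, binds Cdk4 and Cdk6 in G1. Ccnd2 was at 1.67 FPKM in ESCs and 51.5 in NCs, a ratio of 30.8-fold (log2 4.95) and the 83rd highest of the 12714 genes. A pseudocount of 1 brought this log2 ratio to 4.30. The gene lies on the minus strand at chr6:127125162-127152193 (GRCm38), and is overlapped on the other strand by 9330179D12Rik and Gm43126. Fragments behind it were estimated from a size of 1 fragment assumed from the lowest values of the table. On its shortest coding transcript (627 bases) this gave at least 51 in ESCs and 1630 in NCs. Its paralogs did not move with it, as Ccnd1 had 15.2 FPKM in ESCs and 12.1 in NCs, and Ccnd3 had 85.5 and 88.2. The 3 D-type cyclins together went from 102.4 to 151.8 FPKM (1.48-fold). Within that sum Ccnd2 went from 1.63% to 33.9%, Ccnd3 from 83.5% to 58.1% and Ccnd1 from 14.8% to 7.96%. Ccnd3 thus remained the most abundant D-type cyclin in both conditions, and Ccnd2 replaced Ccnd1 as the next.

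The E-type cyclins, which activate Cdk2 at the start of S phase, moved in opposite directions. Ccne1 made up 98.0% of their sum in ESCs and was at 91.4 FPKM, against 59.5 in NCs (1.54-fold lower). Ccne2 was at 1.91 FPKM in ESCs and 4.80 in NCs (2.52-fold higher). With a pseudocount of 1 its log2 ratio went from 1.33 to 0.997 and no longer reached 2-fold. Ccne2 lies at chr4:11191351-11204779 and overlaps Ints8 on the other strand. Summed, the E-type cyclins were 1.45-fold lower in NCs (93.3 and 64.3 FPKM), since Ccne1 outweighed Ccne2.

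The cyclins of S phase and mitosis were high in both conditions. Ccna2, the partner of Cdk2 and Cdk1 in S and G2 phase, had 102.7 FPKM in ESCs and 89.0 in NCs, a direction that turned on the TPM scale. Ccnb1, the main partner of Cdk1 in mitosis, had 219.6 and 139.5 FPKM (1.57-fold lower). Its value is uncertain, because 23.4% of the 50-base words in its transcripts also occur in other genes, Ccnb1-ps and Gm12856 among them. Ccnb2 had 130.1 and 102.7 FPKM (1.27-fold lower), and the B-type sum was 1.44-fold lower in NCs. Ccna1, a cyclin used chiefly in male meiosis, was near the filter with 1.08 and 1.71 FPKM. The 9 cyclins past the filter had a median log2 ratio of -0.21, which became 0.09 on the TPM scale.

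**Figure D2:**
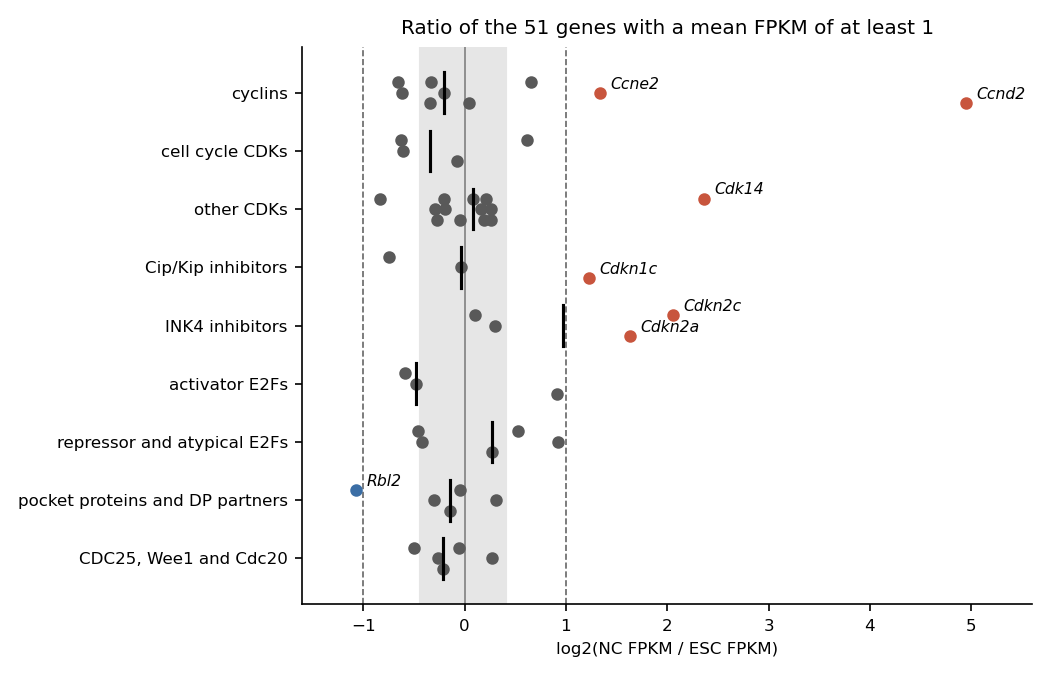
Log2 ratio of NC FPKM to ESC FPKM for the 51 cell cycle genes past the filter, by role, with 1 point per gene. Short black bars are role medians, dashed lines mark 2-fold, and the grey band spans the quartiles of all 12714 genes. The 6 genes past 2-fold to the right are labelled, Ccnd2 at 4.95 farthest out, and Rbl2 is the single gene past 2-fold to the left.

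The cell cycle CDKs were within 2-fold. Cdk4 was 1.54-fold higher in NCs, while Cdk6, its closest relative, was at 6.61 FPKM in ESCs and 4.34 in NCs (1.52-fold lower). Cdk4 made up 97.7% of their sum in ESCs and 99.0% in NCs. Cdk2 was 1.55-fold lower (46.2 and 29.9 FPKM). Cdk1, the mitotic kinase, had nearly the same value in both, 78.2 and 74.1 FPKM. Side by side, the summed D-type cyclins and summed Cdk4 with Cdk6 were both about 1.5-fold higher in NCs. Ccne1 and Cdk2 were both about 1.5-fold lower. These like sizes hold on the FPKM scale only. On the TPM scale the log2 ratios were 0.86 and 0.89 for the sums, and -0.33 and -0.34 for Ccne1 and Cdk2.

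The other CDKs act mostly in transcription or outside the division cycle, and 12 of the 13 past the filter were within 2-fold. The exception was Cdk14, a partner of cyclin Y that takes part in Wnt receptor signalling. It was at 0.702 FPKM in ESCs and 3.61 in NCs (5.14-fold, log2 2.36), the 381st highest ratio of all genes. A pseudocount of 1 brought this log2 ratio to 1.44. At least 17 fragments were estimated behind the ESC value and 89 behind the NC value. On that estimate, counting error alone would be at most 24.3% and 10.6% of these values. Cdk14 spans chr5:4803391-5420312, and several other annotated transcripts lie within it on the same strand. Cdk18, of the PCTAIRE family, was next in size on the lower side, with 10.9 FPKM in ESCs and 6.12 in NCs (1.79-fold lower). Its relatives Cdk16 (46.4 and 49.2 FPKM) and Cdk17 (13.4 and 11.6) stayed closer to a ratio of 1.

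The kinases of the transcription machinery showed little difference. Cdk7, part of TFIIH and the kinase that activates other CDKs, had 11.7 FPKM in ESCs and 13.5 in NCs. Cdk9, the kinase of P-TEFb, had 32.4 and 28.4, and the Mediator kinases Cdk8 and Cdk19 had 34.9 and 33.8, and 4.55 and 5.48. Cdk12 and Cdk13, which phosphorylate RNA polymerase II with cyclin K, had 20.2 and 16.7, and 12.9 and 14.7 FPKM. The direction for Cdk8, Cdk9 and Cdk12 turned on the TPM scale. Cdk5, known for its work in postmitotic neurons, had 11.5 FPKM in ESCs and 12.9 in NCs (1.12-fold). Cdk10 (20.2 and 24.2) and Cdk20 (4.06 and 3.30) were within 1.25-fold, and 10.7% of the 50-base words of Cdk10 and 5.31% of those of Cdk8 are shared with other genes.

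CDK inhibitors held 3 of the 6 genes past 2-fold on the higher side. These were 2 of the 4 INK4 genes and 1 of the 3 Cip/Kip genes, where 10.9% of all genes were higher. Cdkn2c, counted among them, lay below 1 FPKM in ESCs and passed the filter through its NC value alone. The INK4 inhibitors bind Cdk4 and Cdk6 alone, and all 4 of their values were above those of ESCs, on every scale. Of all genes, 47.5% lay above the ESC value, and 67.2% on the TPM scale. Cdkn2a was at 7.80 FPKM in ESCs and 24.2 in NCs (3.10-fold, log2 1.63), with an estimate of at least 368 and 1167 fragments. The gene lies at chr4:89274471-89294653 on the minus strand and makes 2 transcripts from separate starts, p16Ink4a, which inhibits CDKs, and p19Arf, which acts on Mdm2 and p53. The table holds 1 value for both, and they cannot be told apart. Cdkn2c, which makes p18Ink4c, was at 0.589 FPKM in ESCs and 2.45 in NCs (4.16-fold, log2 2.06), with at least 38 and 164 fragments. With a pseudocount of 1 its log2 ratio was 1.12, just past 2-fold. The gene lies at chr4:109660876-109667189. The other members of the family were close to equal, Cdkn2b at 2.77 and 3.42 FPKM (1.23-fold) and Cdkn2d at 13.0 and 14.0 (1.08-fold).

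The INK4 sum went from 24.1 to 44.0 FPKM (1.82-fold). Without Cdkn2a, whose value also covers p19Arf, the other 3 genes summed to 16.3 FPKM in ESCs and 19.8 in NCs (1.22-fold). Cdkn2d was the most abundant in ESCs, with 53.8% of the sum, and Cdkn2a the most abundant in NCs, with 54.9%. The ratio of D-type cyclins to INK4 inhibitors was 4.24 in ESCs and 3.45 in NCs, and without Cdkn2a the direction turned, with 6.27 and 7.66. The ratio of Cdk4 with Cdk6 to the INK4 inhibitors was 11.97 and 9.95, and without Cdkn2a it turned as well, with 17.7 and 22.1.

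The Cip/Kip inhibitors, which bind several cyclin-CDK pairs, differed from each other more than their sum did. Cdkn1c, the imprinted gene of p57Kip2, was at 13.3 FPKM in ESCs and 31.2 in NCs (2.34-fold, log2 1.23). It lies at chr7:143458339-143461050, overlaps Gm44732 on the other strand, and had an estimate of at least 430 and 1029 fragments. Cdkn1a, the gene of the p53 target p21Cip1, went the other way, with 55.9 FPKM in ESCs and 33.4 in NCs (1.68-fold lower). Cdkn1b, the gene of p27Kip1, had 21.5 and 20.9 FPKM. Their sum was 90.7 FPKM in ESCs and 85.4 in NCs, a direction that turned on the TPM scale. Within the sum Cdkn1a went from 61.6% to 39.1% and Cdkn1c from 14.7% to 36.5%, while Cdkn1b held 23.7% and 24.5%. The ratio of the A- and E-type cyclins to this sum was 2.17 in ESCs and 1.81 in NCs.

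**Figure D3:**
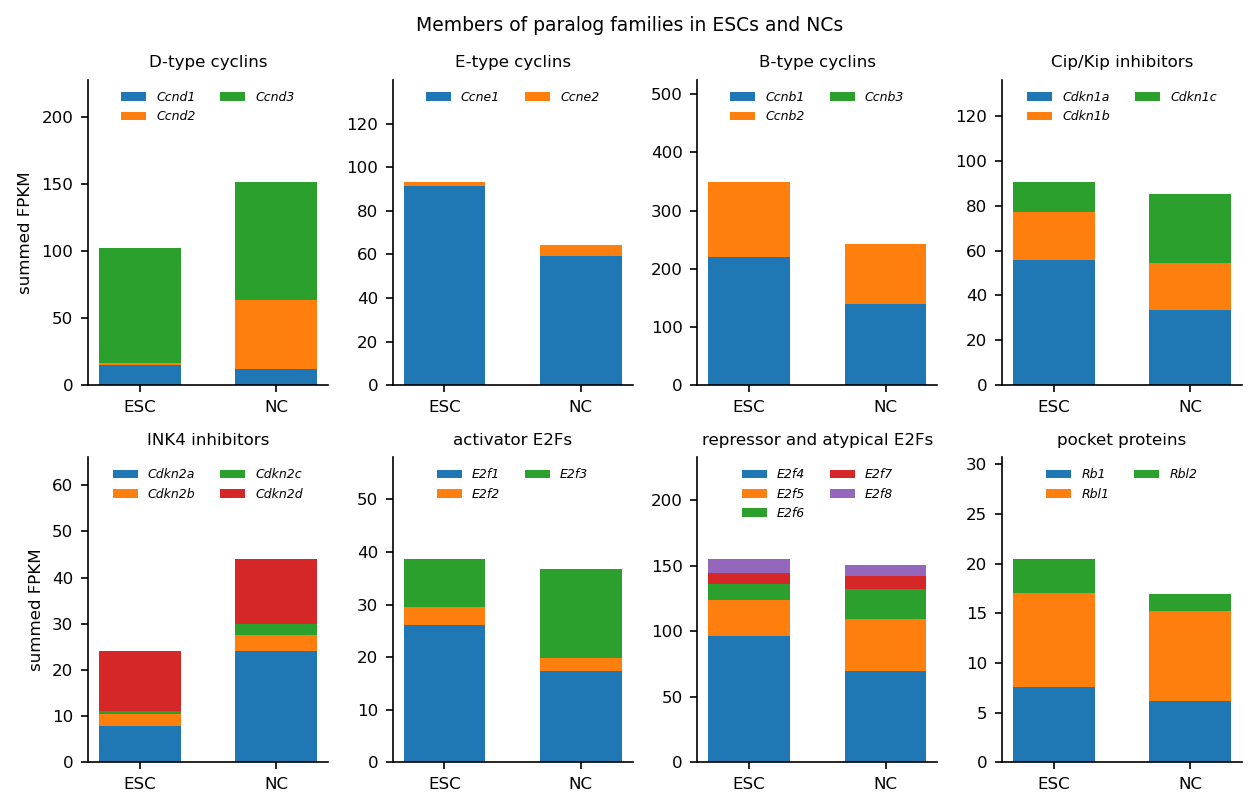
Stacked bars of summed FPKM in ESCs and NCs for 8 paralog families, each colour 1 gene, with an axis from 0 in each panel and no error bars because each value is a single pooled one. The share of Ccnd2 among D-type cyclins, of Cdkn1c among Cip/Kip inhibitors and of Cdkn2a among INK4 inhibitors is larger in NCs, while the Cip/Kip and E2F sums are nearly level, with a direction that turns on the TPM scale.

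None of the 8 E2F factors reached 2-fold. The activators E2f1 to E2f3 are known to drive S phase genes. E2f1 was at 26.2 FPKM in ESCs and 17.4 in NCs (1.51-fold lower), and E2f2 at 3.46 and 2.49 (1.39-fold lower). E2f3 went the other way, with 9.05 FPKM in ESCs and 17.0 in NCs (1.88-fold higher), and its log2 ratio of 0.91 became 1.20 on the TPM scale, past 2-fold. E2f3 has 2 start sites in RefSeq, of which the upstream one is printed above, and the table holds 1 value for both. The sum of the activators was nearly level, 38.7 and 36.9 FPKM, with a direction that turned on the TPM scale. Within it E2f1 went from 67.6% to 47.1% and E2f3 from 23.4% to 46.2%, so that in NCs they were close to equal.

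The repressors E2f4 and E2f5, which work with pocket proteins, also moved apart. E2f4, the most abundant E2F in both conditions, was at 96.2 FPKM in ESCs and 69.8 in NCs (1.38-fold lower), and E2f5 at 27.8 and 39.9 (1.44-fold higher). E2f6, which represses without pocket proteins through Polycomb complexes, was at 11.9 and 22.6 FPKM (1.89-fold higher), and on the TPM scale its log2 ratio went from 0.92 to 1.22, past 2-fold. The atypical factors E2f7 and E2f8, which bind DNA without a DP partner, had 8.19 and 9.91, and 11.1 and 8.27 FPKM. The share of E2f4 in the sum of all 8 factors was 49.6% in ESCs and 37.3% in NCs. The ratio of activators to repressor and atypical factors was 0.249 in ESCs and 0.245 in NCs, nearly the same.

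Of the pocket proteins, Rbl2 was the gene past 2-fold on the lower side. Rbl2 makes p130, the pocket protein of quiescent cells and of the DREAM complex. It was at 3.44 FPKM in ESCs and 1.64 in NCs (2.1-fold lower, log2 -1.07), with an estimate of at least 1073 and 522 fragments. This call was lost with a pseudocount of 1 (log2 -0.75) and on the TPM scale (log2 -0.78). Rbl2 lies at chr8:91070057-91123844 and overlaps Aktip on the other strand. Its paralog Rbl1, the gene of p107, had 9.40 and 9.10 FPKM, and Rb1 had 7.63 and 6.17 (1.24-fold lower). Rbl2 was the least abundant of the 3 pocket protein genes in both conditions, with 16.8% and 9.70% of their sum. The DP partners, with which most E2F factors bind DNA, were at 86.9 and 107.6 FPKM (Tfdp1) and at 19.8 and 17.9 (Tfdp2). Of the 50-base words of Tfdp1, 16.8% also occur in Gm7390.

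The last group sets the timing of Cdk1 activity. Wee1 adds an inhibitory phosphate, the CDC25 phosphatases remove it, and Cdc20 activates the ubiquitin ligase that ends mitosis. All 5 genes were within 1.5-fold. Cdc20 was at 184.6 FPKM in ESCs and 130.8 in NCs (1.41-fold lower), and 10.4% of its 50-base words are shared with other genes such as Gm7856. Cdc25b had 16.6 and 20.02 FPKM, Cdc25a 35.3 and 29.4, Cdc25c 20.6 and 19.8, and Wee1 28.7 and 24.7, and the direction for the last 3 turned on the TPM scale. The ratio of Wee1 to the summed CDC25 genes was 0.395 in ESCs and 0.357 in NCs.

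Other genes of the pathway were read as lists that hold none of the 53 genes. Their counts stand beside 10.9% higher and 9.75% lower over all 12714 genes past the filter. Of 30 S-phase genes, among them the MCM helicase and replication factors, 0 were higher and 1 was lower, with a median log2 ratio of -0.28 (0.02 on the TPM scale). They went from Orc1, a subunit of the origin recognition complex (36.4 FPKM in ESCs, 17.5 in NCs), to Rfc3, of the clamp loader (42.1 and 61.2). Of 26 G2 and mitosis genes, 0 were higher and 2 lower, with a median of -0.32 (-0.02 on the TPM scale). The 2 were Mybl2, the B-Myb factor that works with DREAM subunits (228.6 FPKM in ESCs, 34.9 in NCs, 6.55-fold lower), and Pttg1, the securin (157.8 and 74.8). On the TPM scale Orc1 (log2 -0.76) and Pttg1 (log2 -0.78) were within 2-fold. The highest ratio in this list was that of Bub3 (84.8 and 94.7 FPKM), and Mki67, the proliferation marker Ki-67, had 40.4 FPKM in ESCs and 37.6 in NCs, a direction that turned on the TPM scale. Foxm1 was not analysed here.

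The 24 genes of the APC/C and SCF ubiquitin ligases held 0 genes past 2-fold, with a median of -0.07. They went from Ccnf (125.0 and 69.8 FPKM) to Cul1 (35.0 and 65.8), whose log2 ratio of 0.91 became 1.20 on the TPM scale. Of 17 other CDK regulators past the filter, 1 was higher, the phosphatase gene Cdc14a (1.61 and 4.22 FPKM), and its paralog Cdc14b had the lowest ratio (8.16 and 4.60). The 6 DREAM genes had a median of -0.13, from Mybl2 to Lin54 (9.08 and 9.39 FPKM).

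Of 20 checkpoint and p53 pathway genes, 0 were higher and 4 were lower (20%, against 9.75% of all genes). An NC value below that of ESCs was found for 19 (15 on the TPM scale). Over all 12714 genes it was found for 6671 (4172 on the TPM scale). Their median was -0.51, the lowest of the lists read here apart from pluripotency and neuron markers. The 4 were Mdm4, an inhibitor of p53 (50.1 FPKM in ESCs, 19.1 in NCs, 2.62-fold lower), Chek2, Trp53inp1 and Pmaip1. On the TPM scale Chek2 (log2 -0.96) and Trp53inp1 (log2 -0.73) were within 2-fold. The highest ratio was that of Sesn1 (9.50 and 11.2 FPKM). Cdkn1a, a target of p53 described above, was also lower in NCs, by 1.68-fold.

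**Figure D4:**
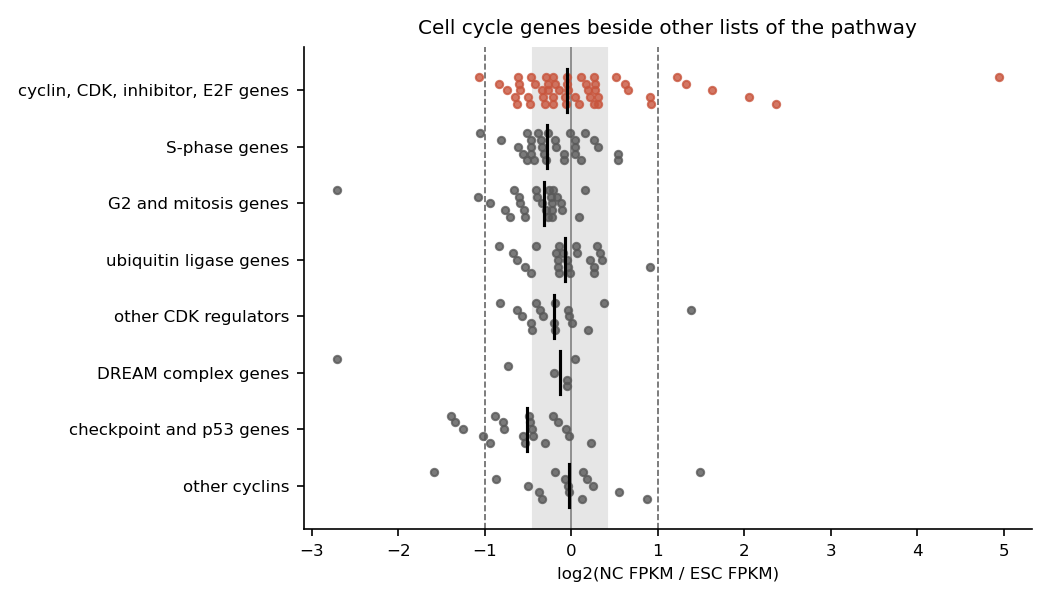
Log2 ratio of NC FPKM to ESC FPKM for the 51 cell cycle genes (top row) and for 7 lists of other genes of the pathway, 1 point per gene with mean FPKM of at least 1. Black bars are medians, dashed lines mark 2-fold, and the grey band spans the quartiles of all 12714 genes. The top row holds 6 points past 2-fold to the right (11.8% of its genes, against 10.9% of all genes). Mybl2 is the farthest point to the left in the 2 rows that hold it, and on the TPM scale every point lies 0.29 further right.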

How the data were processed

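Total RNA of 3 ESC and 3 NC samples was made into TruSeq libraries and sequenced on an Illumina HiSeq instrument. Per the labels and the study's methods, reads were aligned to mm10 with TopHat2 (2.0.8), which calls Bowtie2 (2.1.0), assembled with Cufflinks (2.0.2), merged with Cuffmerge and compared with Cuffdiff. The authors deposited 1 FPKM value per gene and condition, which pools the 3 replicates. The NC column is headed FPK and was read as FPKM. The annotation release, the Cuffdiff version and whether counting used strand are not given in the sources used here. A further 5 deposited columns, of the authors' own comparison (fold change, test statistic, p-value, q-value and a significance call), were not used.

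Of 23235 rows, 426 shared 160 gene names, none of them a gene described here, and the row with the highest mean was kept. All 53 symbols and the 14 other lists were chosen with earlier results of these data known. The rule named every gene of the set, in each list of pathway genes the highest and lowest ratio, and Mki67. Other list genes were named after their values were seen. Ratios were computed with Python 3.11.15 and pandas 2.3.3. The code was run on simulated data with planted changes, which checks the code and says nothing on how reliable these ratios are.

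Depth per sample is unknown. With an assumed fragment length of 200 bases, low values of genes with a single transcript were sorted into narrow bins. The 2 fullest bins held 61.2% of 196 low ESC values and 57.6% of 264 low NC values. They lay at 0.01195 and 0.01378 (FPKM times kilobases) in ESCs, and at 0.00713 and 0.0135 in NCs. That a bin stands for 1 fragment was assumed and not tested. Fragments were estimated from the higher bin of each condition on the shortest coding transcript, after seeing the data, and cover counting error only. Positions and 50-base words came from GENCODE M21 on GRCm38, the assembly of mm10, where 30 of the 53 genes overlapped a gene on the other strand and 10 one on the same strand. Alternatives were pseudocounts of 0.1 and 1, no filter, a filter of 5, centring on the median, summed rows, a limit of 1.5-fold, TPM, and INK4 sums without Cdkn2a.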

Additional observations from a re-analysis of the deposited data

How the results depend on the processing

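Of 232 values recomputed under 9 alternatives, 193 stayed within their limits, 36 moved, 3 lost a 2-fold call and 0 reversed a call. Pseudocounts of 0.1, centring and summed rows moved none. Summed rows gave 65 of the 193 values. No cell cycle gene shares its name with another row, so the values of these genes could not change there. Centring subtracts the median of all genes (log2 -0.036) from every ratio. A median counted as moved from a log2 shift of 0.1, so centring could move no median. The 193 thus include values fixed in advance, which say nothing on stability. With a pseudocount of 1, 0 cell cycle genes were lower, and the medians of the INK4 inhibitors and activator E2Fs became 0.67 and -0.36. Without the filter the cyclin median was -0.081. With a mean FPKM of at least 5, 3 genes were higher and 0 lower, and the medians of cyclins and activator E2Fs were -0.33 and 0.16. At 1.5-fold, 10 were higher and 8 lower. On the TPM scale, chosen after seeing the data, 0 were lower, and the median of all cell cycle genes was 0.25. By role the TPM medians were 0.086 for cyclins, -0.048 for cell cycle CDKs, 0.38 for other CDKs, 0.25 for Cip/Kip inhibitors, 1.26 for INK4 inhibitors, -0.18 for activator E2Fs, 0.57 for repressor and atypical E2Fs, 0.15 for pocket proteins and DP partners, and 0.08 for CDC25, Wee1 and Cdc20. For the other lists they were 0.016 for S-phase genes, -0.023 for mitosis genes, 0.22 for ubiquitin ligases, 0.093 for CDK regulators, 0.26 for other cyclins, 0.17 for DREAM and -0.21 for checkpoint and p53 genes. The TPM shifts follow from the scaling itself, which adds 0.29 to every log2 ratio. Without Cdkn2a, also chosen after seeing the data, the INK4 median was 0.304 and the INK4 sum 16.3 FPKM in ESCs and 19.8 in NCs. The log2 ratio of D-type cyclins to INK4 inhibitors was then 2.65 in ESCs and 2.94 in NCs, and that of Cdk4 with Cdk6 was 4.15 and 4.47, so that both were higher in NCs instead of lower. No paired analysis was possible because the table holds no value of a single replicate, and leaving out replicates was not run for the same reason. Among the genes past 2-fold, Cdk14, Cdkn2c and Ccnd2 had the lowest fragment estimates in ESCs, each on the shortest coding transcript. Coding transcripts run from 534 to 5145 bases for Cdk14 and from 627 to 6330 for Ccnd2. This order thus depends on the transcript assumed.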

Other observations

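Cyclins outside the A, B, D and E families were mostly close to equal in ESCs and NCs. All 16 passed the filter, with a median log2 ratio of -0.03 (0.26 on the TPM scale). Ccnjl was higher in NCs (2.98 FPKM in ESCs and 8.35 in NCs, 2.80-fold) and Cntd1 was lower (7.87 and 2.61, 3.01-fold). The genes named from here on were chosen after their values were seen. Ccng1, a p53 target, was the most abundant, with 127.0 and 125.1 FPKM, a direction that turned on the TPM scale. Ccny, which makes the cyclin partner of Cdk14, was at 17.0 FPKM in ESCs and 24.8 in NCs (1.46-fold higher), a smaller ratio than the 5.14-fold of Cdk14. Ccnt2, a partner of Cdk9, was at 36.0 and 19.6 FPKM (1.84-fold lower), while Ccnt1, the other partner, had 15.3 and 16.7.

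Kinases named for CDKs but outside the symbols chosen were also read. Cdk11b was at 51.5 FPKM in ESCs and 39.8 in NCs (1.30-fold lower). Cdkl2 had 2.04 and 1.18 FPKM, and Cdkl3 2.39 and 2.58. These 3 genes did not reach 2-fold.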
